A study of Mus musculus with 3 samples.

Results

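The 10 genes described here encode the coreceptors, adaptors and IRAK kinases of Toll-like receptor signalling: Cd14, Ly96, Myd88, Ticam1, Ticam2, Tirap, Irak1, Irak2, Irak3 and Irak4. They were chosen by gene symbol, through the 14 probes whose accessions map to these symbols. The rule uses no measured value, but the members were listed with earlier results of these data known. They are 10 of the 20660 genes that a probe on the array names, and all 10 are among the 13181 genes that were measured. Mouse bone marrow-derived macrophages of strain C57BL/6J were compared with and without adiponectin, a hormone of fat cells. Both groups of cells had matured with L929-conditioned medium as their supply of the growth factor CSF-1 and were in low serum from a day before stimulation. The treated cells then received adiponectin at 12 µg/ml for 18 h, and the control cells received nothing. The text on RNA extraction gives that dose in mg/ml instead, so the labels do not settle the unit. Each of 3 Agilent 2-colour arrays held treated RNA in one dye and untreated RNA in the other, so 6 RNA samples gave 3 ratios of treated over untreated, and the labels call the arrays biological replicates. The dyes were swapped on replicate 2, where Cy5 marked the treated cells; Cy3 marked them on the other arrays.

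Toll-like receptors recognise parts of microbes and signal through small adaptor proteins inside the cell. CD14 passes bacterial lipopolysaccharide to the complex of TLR4 and MD-2, the product of Ly96, and the bridging adaptors TIRAP and TRAM (Ticam2) then recruit MyD88 and TRIF (Ticam1). MyD88 assembles with the kinases IRAK4, IRAK1 and IRAK2 to activate NF-kB, TRIF leads to interferon induction, and IRAK3, also called IRAK-M, restrains the MyD88 branch in macrophages.

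With loess normalization, adiponectin-treated macrophages had more RNA of Ticam1, Irak3, Irak2 and Cd14 and less of Irak1, Tirap, Myd88, Irak4, Ly96 and Ticam2. Median centring turned the means of Irak3 and Cd14 to just below 0. Both were then negative on replicates 1 and 3 and positive on the dye-swapped replicate 2. In limma's test across all genes with loess (adjusted p under 0.05), 4 members rose and 6 fell, and each had the same sign on all 3 arrays. These counts stand against a large background, since 24.5% of all tested genes were called higher and 46.1% were called lower. Ticam1, Irak2 and Irak3, so 3 members, rose by 2-fold or more, against 6.8% of all genes. On the brightest probe of each gene, 0 members fell by 2-fold or more, against 12.6%. That 0 depends on the probe of Irak4: its other probe was nearly as bright (7.61 against 7.71 in log2 intensity) and averaged -1.25. The median log2 ratio was -0.40 over the members and -0.17 over all tested genes. When a log2 change beyond 1 was required in the test, only Ticam1 remained called among the members, against 4.36% of genes higher and 6.62% lower. Means below are over n = 3 arrays, with limma's moderated SE unless an SD is named.

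**Figure D1:**
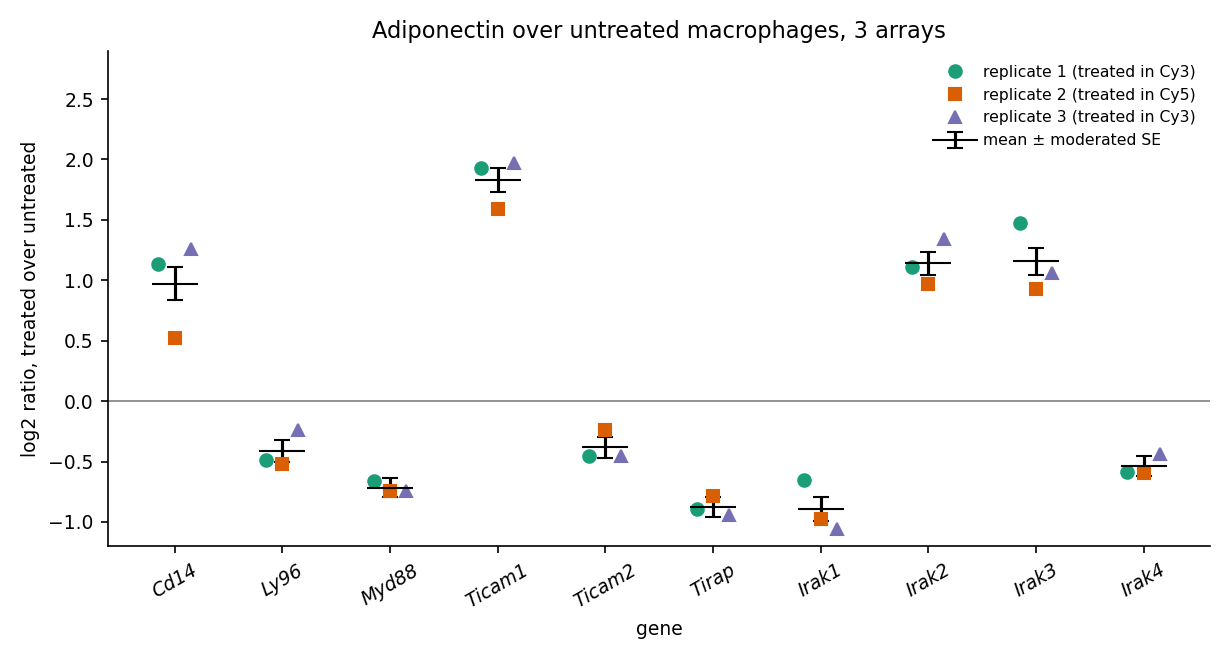
Log2 ratio of adiponectin-treated over untreated macrophages for each member on each of the 3 arrays (symbols), with the mean and limma's moderated standard error (black bars). Ticam1, Irak2, Irak3 and Cd14 lie above 0 on all 3 arrays and the other 6 genes below 0, with loess normalization. Median centring instead put the means of Cd14 and Irak3 slightly below 0, with positive ratios on the dye-swapped replicate 2 only.

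The promoters of 4 members are printed because they belong to genes that moved in opposite directions: Ticam1, Irak2 and Irak3, which rose with loess normalization (Irak3 was at -0.01 with median centring), and Myd88, which fell. Each is the stretch of 250 bases before the start farthest upstream, 5′ to 3′ on the gene's strand, from RefSeq with build GRCm38.p6. They lie at chr17:56276768-56277017 (minus strand) for Ticam1, chr6:113638217-113638466 (plus strand) for Irak2, chr10:120202131-120202380 (minus strand) for Irak3 and chr9:119340019-119340268 (minus strand) for Myd88. Capitals mark matches, on either strand, to the GC box GGGCGG or to the interferon-stimulated response element (ISRE) GAAANNGAAA.
Ticam1: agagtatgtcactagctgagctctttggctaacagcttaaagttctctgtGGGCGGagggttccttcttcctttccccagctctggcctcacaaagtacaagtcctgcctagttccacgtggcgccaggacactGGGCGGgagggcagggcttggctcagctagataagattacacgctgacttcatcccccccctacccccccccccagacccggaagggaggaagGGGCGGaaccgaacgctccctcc
Irak2: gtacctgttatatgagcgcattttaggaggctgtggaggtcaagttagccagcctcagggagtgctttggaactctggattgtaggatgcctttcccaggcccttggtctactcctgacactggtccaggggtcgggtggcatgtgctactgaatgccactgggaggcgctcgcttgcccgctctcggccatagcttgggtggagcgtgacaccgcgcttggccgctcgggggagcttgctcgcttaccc
Irak3: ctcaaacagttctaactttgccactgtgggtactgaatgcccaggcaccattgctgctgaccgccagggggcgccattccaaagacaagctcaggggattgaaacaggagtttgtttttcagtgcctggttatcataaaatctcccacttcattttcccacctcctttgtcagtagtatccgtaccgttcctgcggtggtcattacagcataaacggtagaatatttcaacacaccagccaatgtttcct
Myd88: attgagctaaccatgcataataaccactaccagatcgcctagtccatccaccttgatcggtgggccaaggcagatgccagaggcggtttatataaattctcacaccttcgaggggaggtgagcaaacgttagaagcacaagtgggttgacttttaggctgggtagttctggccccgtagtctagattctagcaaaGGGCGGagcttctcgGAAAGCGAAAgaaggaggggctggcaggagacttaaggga
The window of Myd88 held 1 ISRE match, GAAAGCGAAA, which began 40 bases before the start, and 1 GC box at 55 bases before it. Ticam1 held 3 GC boxes, at 200, 116 and 23 bases before the start, while Irak2 and Irak3 held no match to any of the motifs searched. An ISRE match was present in 2.98% of all 32851 promoter windows of this length and a GC box in 32.7%. The GC content was 59.6% for Ticam1, 60.0% for Irak2, 47.6% for Irak3 and 51.2% for Myd88, against a median of 52.4% over all windows. RefSeq windows were found for 7 of the 10 members, and of those not printed, Irak1 and Irak4 held 1 GC box each and Tirap held none. None of the 7 windows matched the AP-1 letters TGANTCA, found in 6.75% of all windows, or the NF-kB motif, found in 3.90%. No GC box overlapped the ISRE match, and a match shows only that the letters are there. Cd14, Ly96 and Ticam2 are named only.

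Of the coreceptors, Ly96 fell, and Cd14 rose with loess normalization but not with median centring. Cd14, the surface protein that hands lipopolysaccharide to the receptor complex, had normalized log2 intensities of 16.09, 15.62 and 16.14 in treated cells of replicates 1, 2 and 3. The untreated cells had 14.96, 15.10 and 14.88. Every treated value was above every untreated value, but the treated value of replicate 2 was the lowest of its group and the untreated value of that replicate the highest. The log2 ratios were thus 1.13, 0.53 and 1.26, and the mean was 0.97 ± 0.14 (moderated SE, n = 3 arrays), a 1.96-fold rise with adjusted p = 0.000253 in limma. With median centring, which shifts a whole array in place of the loess curve, the mean was -0.05 ± 0.56. That mean joins opposite signs, -0.72 and -0.79 on replicates 1 and 3 and 1.37 on replicate 2. Replicate 2 is also the dye-swapped array. Before normalization the Cd14 spot stood 28939, 74251 and 27995.5 units above the local background in treated cells. In untreated cells it stood 72592, 27072.5 and 68943 units above it, so on each array the Cy5 reading was the higher. With loess the ratio was 1.20 on average on the arrays with treated RNA in Cy3 and 0.53 on the one with it in Cy5, and the dye coefficient of Cd14 had adjusted p = 0.184 in limma.

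Ly96 encodes MD-2, the protein that binds lipopolysaccharide together with TLR4. Its log2 intensities were 11.67, 11.64 and 11.83 in treated cells against 12.16, 12.17 and 12.06 in untreated cells. The groups did not overlap, and replicate 3 had the smallest gap. The log2 ratios of -0.49, -0.52 and -0.24 gave a mean of -0.42 ± 0.091 (adjusted p = 0.00318 in limma), a 1.33-fold fall that shrank to -0.25 when the tested genes were used to centre each array. Relative to the median of all tested genes, replicate 3 was at -0.03 with loess and at 0.03 in the authors' deposited table. The mean relative to that median was -0.25 and -0.20. On the same array Cd14 exceeded Ly96 in log2 ratio by 1.62, 1.05 and 1.50, a mean difference of 1.39 ± 0.30 (SD, n = 3). This difference does not depend on where an array is centred, and it was 1.53 with median centring.

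Among the adaptors, Ticam1 rose while Myd88, Tirap and Ticam2 fell. Ticam1 encodes TRIF, the adaptor through which TLR3 and internalised TLR4 signal. Normalized log2 intensities of Ticam1 were 12.26, 12.15 and 12.45 in treated cells and 10.33, 10.56 and 10.48 in untreated cells. The lowest treated value lay well above the highest untreated one. Log2 ratios of 1.93, 1.59 and 1.97 gave a mean of 1.83 ± 0.099, a 3.56-fold rise with adjusted p = 1.05e-06 in limma. Ticam1 had the highest ratio of the 10 members and stood above 97.6% of all tested genes. With median centring it was at 0.66 ± 0.48, above 96.7% of genes, though no longer called.

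Myd88 encodes the adaptor shared by most Toll-like receptors and by the IL-1 receptor family. The Myd88 log2 intensities were 11.64, 11.65 and 11.54 in treated cells and 12.30, 12.40 and 12.28 in untreated cells. The ratios of -0.66, -0.75 and -0.75 were the most alike across arrays of any member, with an SD of 0.051 around a mean of -0.72 ± 0.080 (adjusted p = 6.40e-05 in limma, 1.64-fold lower). The Myd88 probe was printed on 10 spots of each array, which gives a measure of the spread within an array. Spot ratios ran from -0.72 to -0.58 on replicate 1, from -0.86 to -0.61 on replicate 2 and from -0.87 to -0.69 on replicate 3. All of these spot ratios were below 0, and the SDs of single spots within an array were 0.042, 0.080 and 0.062.

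Tirap encodes the bridging adaptor that brings MyD88 to the membrane. The log2 intensities of Tirap were 8.80, 8.90 and 8.84 in treated cells against 9.69, 9.69 and 9.79 in untreated cells. The groups were clearly apart, and the log2 ratios of -0.89, -0.79 and -0.95 gave a mean of -0.88 ± 0.082, a 1.84-fold fall with adjusted p = 2.21e-05 in limma. Tirap and Myd88, which act together, moved by similar amounts: the difference between them on an array was 0.16 ± 0.10 (SD, n = 3).

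Ticam2 encodes TRAM, the bridging adaptor between TLR4 and TRIF. Ticam2 had log2 intensities of 6.93, 7.10 and 6.96 in treated cells against 7.39, 7.35 and 7.41 in untreated cells. Before normalization its spot stood 30, 73.5 and 31 units above the local background in treated cells and 217, 96 and 209 units above it in untreated cells. In each group the readings in Cy5 were the higher, and all 6 readings were well above background. The log2 ratios of -0.46, -0.24 and -0.45 gave a mean of -0.38 ± 0.087 (adjusted p = 0.00388 in limma, 1.30-fold lower), with replicate 2 nearest to 0. The size of the fall followed the background handling and the centring, from -0.59 with no normexp offset to -0.21 with arrays centred on the tested genes. Taken relative to the median of all genes, Ticam2 was at -0.21 with loess and at 0.18 with median centring, so its direction relative to other genes is not settled.

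Ticam1 was compared with Myd88 and with Ticam2 within each array. On the same array Ticam1 exceeded Myd88 in log2 ratio by 2.58, 2.34 and 2.72, a mean difference of 2.55 ± 0.19 (SD, n = 3) that was 2.52 with median centring. Ticam1 exceeded Ticam2 by 2.21 ± 0.33, which fell to 1.55 with median centring and rose to 2.57 with no normexp offset. All pairs of members compared within arrays, here and in the other paragraphs, were chosen after the values were seen and carry no test.

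**Figure D2:**
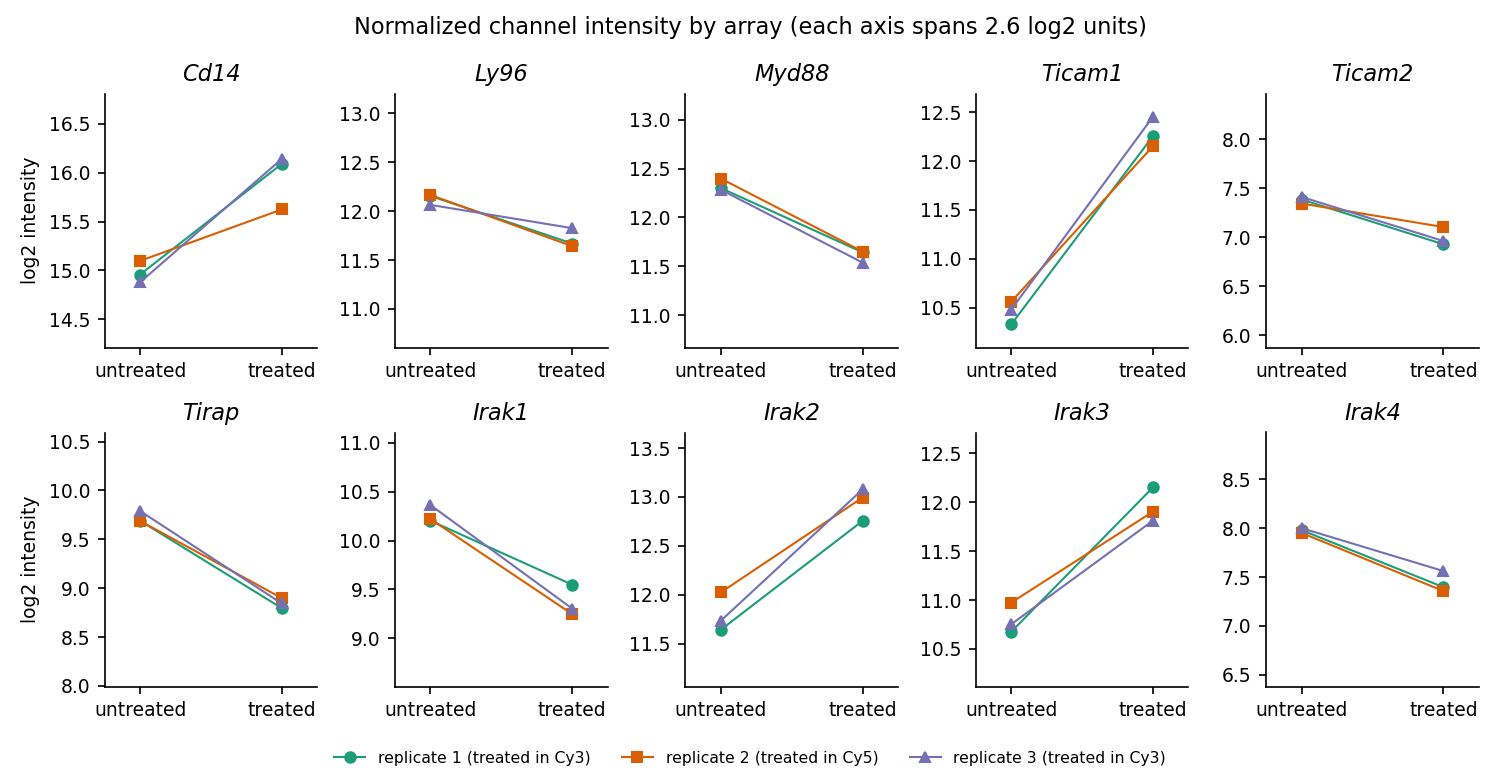
Normalized log2 intensity of the untreated and treated channel of each array, joined by a line per array, for the 10 members; each panel spans the same number of log2 units, and levels are not comparable between panels. In each panel the 3 treated values lie all above or all below the 3 untreated values, above for Cd14, Ticam1, Irak2 and Irak3, with loess normalization; with median centring the means of Cd14 and Irak3 were slightly below 0.

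The channels of treated and untreated cells overlapped for none of the 10 members. Over all tested genes, 26.8% had all 3 treated values above the untreated ones and 48.7% had all 3 below, so separation of this kind was common on these arrays.

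The IRAK family split with loess normalization, with Irak2 and Irak3 higher and Irak1 and Irak4 lower in treated cells, while with median centring Irak2 was at 0.01 and Irak3 at -0.01. Irak4 encodes the kinase that MyD88 binds first. Irak4 had log2 intensities of 7.40, 7.36 and 7.56 in treated cells against 7.98, 7.95 and 8.001 in untreated cells. All treated values were lower, and the log2 ratios of -0.58, -0.59 and -0.44 gave a mean of -0.54 ± 0.083 (adjusted p = 0.000434 in limma, 1.45-fold lower). A further, dimmer probe of Irak4 had ratios of -1.22, -1.36 and -1.16. Both probes of Irak4 were negative on all arrays with loess, but their sizes differed, and the mean over both was -0.89. Before normalization the spot of the brighter probe stood only 51, 98 and 56.5 units above the local background in treated cells. Its mean was -0.78 from the scanner's own ratios and -0.37 with arrays centred on the tested genes. Relative to the median of all genes with median centring, Irak4 was at -0.14, -0.55 and 0.05.

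Irak1 encodes the kinase that IRAK4 phosphorylates and that passes the signal to TRAF6. The log2 intensities of Irak1 were 9.55, 9.25 and 9.30 in treated cells against 10.20, 10.22 and 10.36 in untreated cells. Treated values were lower throughout, with log2 ratios of -0.65, -0.97 and -1.06 and a mean of -0.90 ± 0.100, a 1.86-fold fall with adjusted p = 6.09e-05 in limma. Of the other probes of Irak1, one had ratios of -0.19, -0.58 and -0.41, and the last had -0.24, -0.19 and -0.67. All 3 probes were negative on all 3 arrays, and the mean over them was -0.55, so the size of the fall depends on the probe.

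Irak2 encodes the IRAK that sustains the late MyD88 response. Irak2 had log2 intensities of 12.75, 12.99 and 13.08 in treated cells against 11.64, 12.02 and 11.73 in untreated cells. The log2 ratios of 1.11, 0.97 and 1.34 gave a mean of 1.14 ± 0.096 (adjusted p = 1.13e-05 in limma), a 2.21-fold rise. With median centring the mean was 0.01 ± 0.53, from -0.63 on replicates 1 and 3 and 1.30 on the dye-swapped replicate 2. The dimmer probe of Irak2 had ratios of 1.46, 1.65 and 1.59, so both probes were positive on all 3 arrays with loess normalization.

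Irak3 encodes the IRAK that lacks an active kinase and limits signalling by the other IRAKs. Irak3 had log2 intensities of 12.15, 11.90 and 11.81 in treated cells against 10.68, 10.97 and 10.75 in untreated cells. Replicate 1 had both the highest treated and the lowest untreated value, and hence the largest ratio of 1.48, against 0.93 and 1.06 on the other arrays. The mean was 1.16 ± 0.11 (adjusted p = 2.84e-05 in limma), a 2.23-fold rise. With median centring the mean turned to -0.01 ± 0.50, from 1.09 on the dye-swapped replicate 2 and -0.24 and -0.89 on replicates 1 and 3.

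The IRAKs were also compared within each array. Irak2 exceeded Irak1 in log2 ratio by 1.77, 1.94 and 2.40, a mean of 2.04 ± 0.33 (SD, n = 3), and by 2.07 with median centring. Irak2 exceeded Irak4 by 1.68 ± 0.11, or by 1.30 with median centring and 2.25 with the mean over the probes of a gene. Irak3 exceeded Irak4 by 1.69 ± 0.32, or by 1.27 with median centring. In each of these comparisons the sign was the same on all 3 arrays under both normalizations. With loess that sign follows from the signs of the single genes, which were already seen when the pairs were chosen. None of the comparisons was tested.

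**Figure D3:**
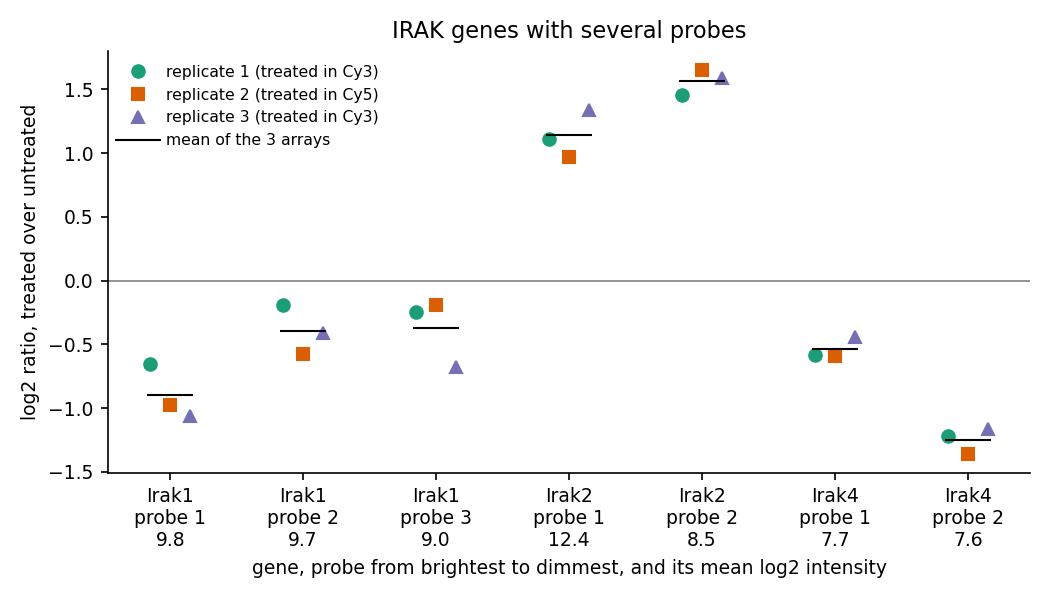
Log2 ratio of treated over untreated on each array for every probe of the 3 IRAK genes with several probes, ordered within a gene from the brightest to the dimmest, with the mean of the 3 arrays as a line. All 3 Irak1 probes and both Irak4 probes lie below 0 and both Irak2 probes above 0 with loess normalization, while Irak2 was at 0.01 with median centring.

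How the rises read depended on the normalization. With loess the median gene was at -0.17, and with median centring it was at -1.03. In that setting limma called 0 of 13181 genes higher and 0 lower (5315 genes, of which 5 were members, had p under 0.05 before adjustment). The arrays behind these values differed: every member was then lower on replicates 1 and 3 than on the dye-swapped replicate 2. Myd88, for example, was at -2.39 and -2.71 against -0.50. Moderated SEs of the members ran from 0.39 to 0.56, against 0.080 to 0.14 with loess. The 0 calls thus include this gap between arrays, and the part of the dyes in it was not tested. Relative to the median gene, Ticam1 was 2.00 higher with loess and 1.73 higher with median centring. Irak3 was 1.33 and 1.06 higher, Irak2 1.31 and 1.08 higher and Cd14 1.14 and 1.02 higher. Measured in this way, the 4 genes that rose with loess stood above the typical gene under both normalizations. They were above 92.9% (Cd14), 94.5% (Irak2), 94.6% (Irak3) and 97.6% (Ticam1) of genes with loess, and above 85.4%, 87.9%, 86.8% and 96.7% with median centring. Relative to the same median, Irak1 was at -0.72 with loess and -0.98 with median centring, Tirap at -0.71 and -0.91, Myd88 at -0.55 and -0.80, Irak4 at -0.37 and -0.21, and Ly96 at -0.25 and -0.50. Centring each array on the tested genes changed the split of calls over all genes to 35.2% higher and 36.7% lower, and left 4 members called higher and 6 lower.

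**Figure D4:**
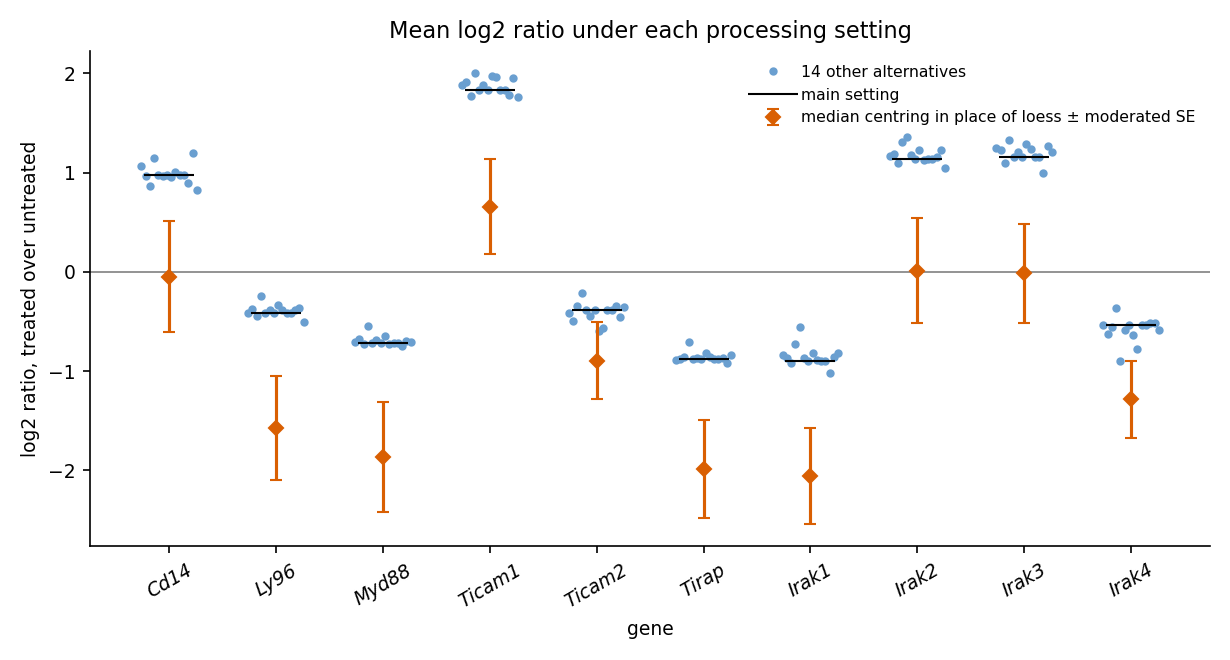
Mean log2 ratio of each member under the main setting (black line), under 14 other alternatives (blue points) and with median centring in place of loess (orange diamonds with the moderated standard error). Blue points keep the sign of the main value for all 10 genes, and those of the dim filters and separate channels equal it. Median centring shifts the mean of every member down, to -0.05 for Cd14, -0.01 for Irak3 and 0.01 for Irak2. On the dye-swapped replicate 2 the shift was not down for all members: Cd14 moved from 0.53 to 1.37 and Irak1 from -0.97 to -1.01.

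The receptors that use these adaptors mostly fell. Of 12 Toll-like receptor genes measured, 1 rose, 8 fell and 3 did not pass, with a median of -0.49. The median was -1.09 with median centring, -1.20 with no normexp offset, -0.83 in the authors' deposited table, -0.32 with arrays centred on the tested genes and -1.85 from the scanner's own ratios, so its size depends on background handling and scaling. This count and those of the lists that follow stand beside 24.5% of all genes higher and 46.1% lower and a median of -0.17. Tlr13, a sensor of bacterial ribosomal RNA, fell by 4.10 ± 0.10 on the log2 scale, and Tlr4, the partner of Cd14 and Ly96, fell by 2.98 ± 0.11. Tlr3, which signals through Ticam1 alone, fell by 1.52 ± 0.081 (-2.27 with no normexp offset and -2.58 from the scanner's own ratios), and Tlr7, a sensor of single-stranded RNA that uses Myd88, fell by 1.22 ± 0.082. Tlr4 fell from a mean log2 intensity of 10.37 to 7.39, so the genes of the lipopolysaccharide receptor moved apart: Tlr4 and Ly96 lower, Cd14 higher with loess and at -0.05 with median centring. Tlr2, the receptor of bacterial lipoproteins, rose by 0.54 ± 0.099 with loess, against -0.62 with median centring. Tlr8, also among the 8, was at -0.75 ± 0.086. Of the rest of the 8, Tlr5, Tlr11 and Tlr12, named after their values were seen, were not well above background in treated cells on any array. With loess they were at least 1.41-fold, 1.25-fold and 1.37-fold lower (limma's adjusted p was 0.000571, 0.0114 and 0.00106). Each bound sets the untreated mean against the higher of the gene's own treated signal and the dimmest signal well above background. For Tlr12 the bound equals the measured fall. The bounds cover dim signal but not scaling: with arrays centred on the tested genes the log2 ratios were -0.35, -0.15 and -0.28. With these bounds the median of the receptors was -0.48.

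Accessory proteins of the receptors fell as well. Of 10 measured, 0 rose, 8 fell and 2 did not pass, with a median of -0.82 (-1.96 with median centring). Ly86, which encodes the MD-1 partner of the receptor-like CD180, fell by 1.39 ± 0.084, and Cd180 itself fell by 0.88 ± 0.10. Cd36, a scavenger receptor that assists TLR2, fell by 1.11 ± 0.079. Lrrfip1, a sensor of cytosolic nucleic acid, fell by 1.51 ± 0.13 on its brightest probe and by 0.49 on another.

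Genes that act after the IRAKs were mixed. Of 20 measured, 5 rose, 9 fell and 6 did not pass, with a median of -0.21 (-1.32 with median centring and -0.04 with arrays centred on the tested genes). With that last centring the counts were 7 higher and 5 lower. Traf3, which links TRIF to the interferon branch, rose by 1.20 ± 0.090 (0.03 with median centring). The rises of Ube2n, a ubiquitin-conjugating enzyme of TRAF6 signalling, of Peli1, a ubiquitin ligase for IRAKs, and of Ikbkb, a kinase of the IKK complex, were 0.88 ± 0.085, 0.69 ± 0.088 and 0.54 ± 0.082. These 3 changed sign with median centring, at -0.24, -0.44 and -0.63, and the other measured probe of Ube2n was at -0.13. Peli2, a relative of Peli1, fell by 1.77 ± 0.13 (-3.04 from the scanner's own ratios). The transcription factors Irf5 and Irf3 fell by 1.21 ± 0.11 and by 0.95 ± 0.080. Map3k7, the kinase TAK1, fell by 0.91 ± 0.084 on its brightest probe and by 0.24 on another. Traf6, the ubiquitin ligase directly after the IRAKs, had a log2 ratio of -0.07 ± 0.084 and did not pass (adjusted p = 0.484 in limma).

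Of 11 measured inhibitors of the adaptors and IRAKs, 6 rose, 4 fell and 1 did not pass, and their median was 0.22 (-0.67 with median centring and 0.44 with no normexp offset). Tnfaip3, the ubiquitin-editing enzyme A20, rose by 3.19 ± 0.10, and Traf1 rose by 2.72 ± 0.089. These remained positive with median centring, at 2.08 and 1.63. Socs1, which limits cytokine signalling, rose by 1.44 ± 0.11 (0.26 with median centring), and Tollip, which binds IRAK1, rose by 0.51 ± 0.080 (-0.65 with median centring). Sigirr, an inhibitory member of the IL-1 receptor family, fell by 1.49 ± 0.081. Irf4, a competitor of IRF5 for MyD88, fell by 0.43 ± 0.092 (-1.07 from the scanner's own ratios), and Nlrx1 fell by 0.77 ± 0.100 on its brightest probe while another probe was at 0.10. Il1rl1, the IL-33 receptor ST2, was at least 2.02-fold lower with loess (adjusted p = 1.85e-05 in limma). This is a bound of the same kind, since Il1rl1 was not well above background in treated cells on any array. The bound equals the measured fall, and with arrays centred on the tested genes the log2 ratio was -0.84. Irak3, an inhibitor by function, was counted among the members.

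Of the IL-1 family receptors, which share Myd88 and the IRAKs, 5 were measured, of which 2 rose, 2 fell and 1 did not pass. Il1rap, the accessory chain, rose by 0.31 ± 0.081, and Il1r1, the signalling receptor of IL-1, by 0.30 ± 0.089. Their sizes were unsettled: Il1rap was at 0.09 with median centring, 0.73 with no normexp offset and 1.01 from the scanner's own ratios, and Il1r1 at 0.07, 0.69 and 1.21. The call of Il1rap was lost without replicate 1 (adjusted p = 0.0501 in limma) and that of Il1r1 without replicate 2 (adjusted p = 0.0544 in limma). With loess, Il18rap was at least 1.27-fold lower (adjusted p = 0.00446 in limma), by the same bound as Il1rl1, which is also in this list. With arrays centred on the tested genes the log2 ratio of Il18rap was -0.18.

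**Figure D5:**
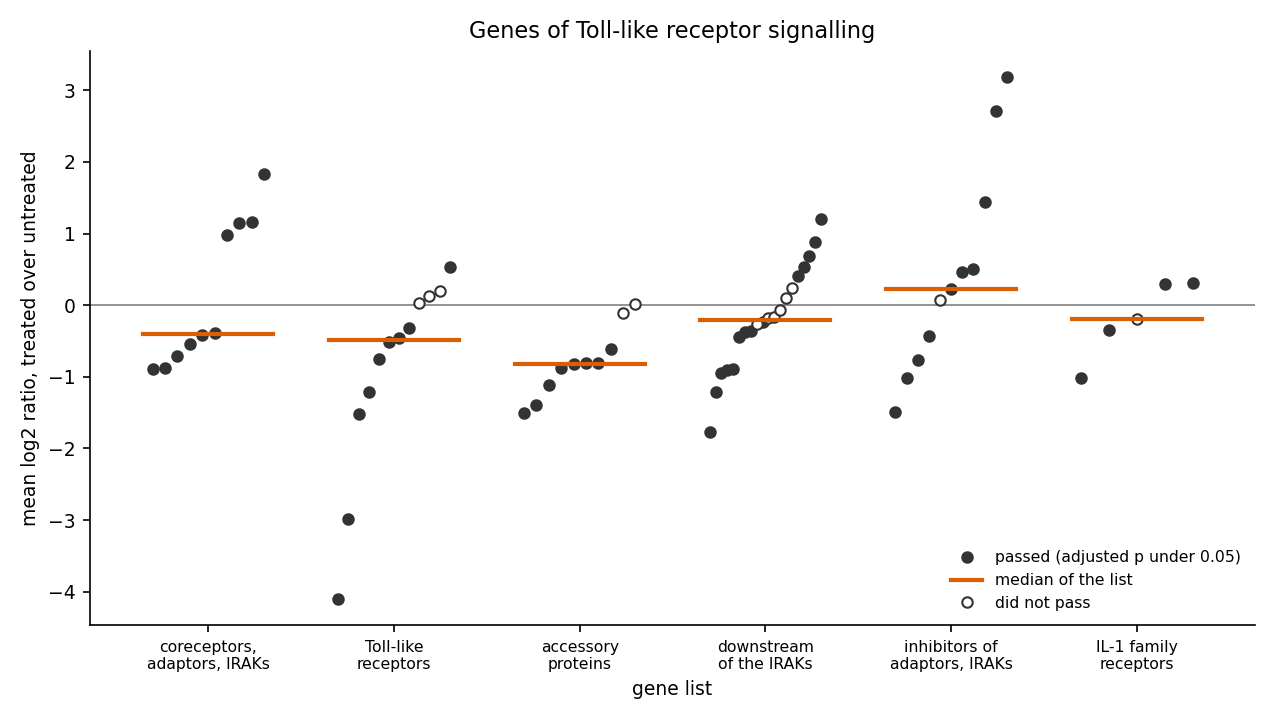
Mean log2 ratio of treated over untreated for each measured gene of the 10 members and of 5 lists of pathway genes, filled where limma's adjusted p was under 0.05, with the median of each list as an orange line. Medians with loess, and with median centring in parentheses, were -0.49 (-1.09) for the receptors, -0.82 (-1.96) for the accessory proteins, -0.21 (-1.32) downstream of the IRAKs, 0.22 (-0.67) for the inhibitors and -0.19 (-0.39) for the IL-1 family receptors, beside -0.40 for the members with loess.

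The markers of the labelled cell type were present, and their levels moved with the treatment, as measured with loess normalization. All 7 measured macrophage markers were well above background in every reading, and all 7 fell, Itgam (-0.80) and Csf1r (-1.79) among them. Their summed log2 level ran from 16.34 to 17.11 in treated and from 18.10 to 18.21 in untreated samples. Treated channels had 43.9% to 47.5% of probes well above background and untreated channels 53.4% to 54.3%. Of 8 neutrophil markers, 7 were well above background in every reading, of which 3 rose and 3 fell with loess normalization, and the summed level was 14.70 to 15.35 in treated and 14.62 to 14.83 in untreated samples. The dendritic cell list had 3 of 6 markers well above background in every reading (Ccr7, Zbtb46 and Siglech), and Ccr7 and Zbtb46 rose, by 4.97 ± 0.082 and 1.51 ± 0.087 with loess normalization. Its summed level was 15.93 to 16.04 in treated and 15.13 to 15.36 in untreated samples, and Xcr1 and Clec9a were above background in no reading. Cd3d and Cd8a of T cells, Ms4a1 of B cells, 4 of 5 mast cell and basophil markers, Pdgfra of fibroblasts and all 4 erythroid markers were above background in no reading. Summed levels in treated and untreated samples were 11.28 to 11.41 and 11.11 to 11.29 for the T and NK cell list, in which 2 of 6 markers were above background in every reading and Cd3e rose with loess normalization. For the B cell list, with 1 of 5 such markers, they were 9.34 to 9.44 and 10.53 to 10.60. The mast cell and basophil list, with 1 of 5, had 8.52 to 8.71 and 8.91 to 8.98. For the fibroblast list, with 2 of 5, both of which rose with loess normalization, they were 9.10 to 9.26 and 8.76 to 8.91. The part of these shifts in the members' ratios was not tested. In such bulk RNA, fewer cells of a type and less RNA per cell cannot be told apart. All 3 arrays were on 1 slide and were read in 1 scan, and p-values measure the spread between these arrays only.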

How the data were processed

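Per the file headers, the arrays were quantified with Agilent Feature Extraction 10.7.3.1 on a design placed on mm9. The deposited intensity columns are, per the file headers, median pixel values for spots and for the background around them, in Cy3 and Cy5. The deposited log10 ratios compare Cy5 with Cy3 signals after the scanner software had subtracted background and normalized the dyes, per the file headers. The authors' deposited log2 table does not state its processing; it correlated at 0.994, 0.990 and 0.992 with treated over untreated ratios made without background correction (slopes 1.04, 1.08 and 1.05, medians -0.0024, -0.0097 and -0.0058), so it already runs in that direction, and its background handling is unknown.

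Here the median signals were corrected with normexp (offset 50) and normalized by loess (limma 3.58.1, R 4.3.3), where control spots had a weight of 0. Outlier spots (323, 303 and 299) were left out, and 0 spots were saturated. Ratios were turned to treated over untreated by the dyes in the labels. Probe accessions were named through RefSeq (27235 of 55681 probes had 1 symbol). Probes well above background in at least 3 of 6 readings were kept, and the brightest probe stood for a gene. The 3 ratios were tested against 0 with lmFit and eBayes, with Benjamini-Hochberg adjustment over 13181 genes. The fit was tested on simulated ratios, which covered neither the normalization nor the choice of probes. SEs are limma's moderated ones (6.22 prior and 2 residual degrees of freedom). Across genes, ratios correlated between arrays at 0.943 to 0.968. The array number limits the precision.

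Named were all members with every probe and, per pathway list, up to 4 called genes in each direction with the largest mean ratio and the same sign on all arrays; Traf6, Tlr5, Tlr8, Tlr11, Tlr12 and the cell type markers were named besides. The members and lists were chosen with earlier results of these data known. Alternatives covered background, normalization, starting values, the dim filter, probes, replicates, array weights, dye, separate channels and a required change.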

Additional observations from a re-analysis of the deposited data

How the results depend on the processing

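Besides a required log2 change, 15 alternatives were run, of which 14 kept each member's direction and call. Among the 14, the other dim filters and the separate-channel fit returned every member's main ratio, so they say nothing more on direction. Median centring in place of loess ended all calls, with 0 members called higher and 0 lower. It turned Cd14 to -0.047 and Irak3 to -0.014. Both means joined negative ratios on replicates 1 and 3 with a positive one on the dye-swapped replicate 2. The cause was not tested. A required log2 change of 1 left 1 member called higher and 0 lower. Leaving out each array in turn gave 4 members higher and 6 lower each time, with 0.83 to 1.20 for Cd14 (1.20 without replicate 2). Outside median centring the highest adjusted p in limma was 0.0479 for Ticam2, 0.0408 for Ly96 and 0.0105 for Cd14. A dye term left 1 residual degree of freedom; 44 genes but 0 members had a dye coefficient past the threshold. The test on the ratios is itself paired, by array; a separate-channel fit kept 4 and 6. Among the lists, centring on the tested genes gave 3 receptors higher and 7 lower. Ube2v1 and Cyld lost their call without replicate 1 or replicate 3. Ube2v1, at -0.23 on its brightest probe, was at 0.32 on another. Low signal over background limits what can be said of Ticam2 and of the size of the fall of Irak4.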
